A study of Mus musculus with 2 samples.

Results

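The 10 genes described here are the interleukin-1 (IL-1) family and inflammasome genes Il1a, Il1b, Il1rn, Il1r2, Il18, Il18bp, Casp1, Casp4, Nlrp3 and Gsdmd, and all 10 were found by symbol among the 31053 genes of the deposited feature lists. Single-cell RNA-seq with a 3′ 10x Genomics v3 kit had been run on live (7-AAD-negative) CD45+ cells sorted from subcutaneous B16 melanoma tumours, with the aim of comparing the immune infiltrate of tumours in mice with and without myeloid METTL3, a methyltransferase that writes m6A on RNA. There was 1 library per genotype, both from C57BL/6 mice of 8 weeks that carried the floxed Mettl3 allele. The library labelled WT came from Mettl3 fl/fl Lyz2 +/+ mice, and the library labelled KO, given as METTL3 deficient, from Mettl3 fl/fl Lyz2 cre/+ mice, in which Cre is driven by Lyz2 and is active in macrophages, monocytes, granulocytes and a part of the dendritic cells. Each library was made from a pool of several mice, so the spread between animals is not seen. With 1 library per genotype no test was possible, so each difference compares these 2 libraries and not the genotypes, and all intervals are 95% intervals that cover counting error only.

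IL-1α and IL-1β are the agonist cytokines of the IL-1 receptor, and their access to it is limited by the receptor antagonist IL-1Ra, encoded by Il1rn, and by the decoy receptor IL-1R2. IL-18 is a related cytokine that acts on T cells and NK cells and is held back in solution by the IL-18-binding protein, encoded by Il18bp. IL-1β and IL-18 are made as inactive precursors that caspase-1 cuts after a sensor such as NLRP3 has assembled an inflammasome, caspase-11 (Casp4 in the mouse) responds to cytosolic lipopolysaccharide, and both caspases open gasdermin D, which forms pores in the membrane. Cutting and release happen in proteins, so transcript levels speak only to the supply of these components.

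The libraries held 5895 and 8446 cell barcodes (labelled WT and KO throughout, in that order), of which 5405 and 7625 remained after filtering, with a median of 4148 and 3567 unique molecular identifiers (UMIs, each counting a captured transcript molecule) per cell, and 13 barcode sequences occurred in both libraries. Cells were gated on marker genes, which left 1512 and 1733 macrophage-gated, 873 and 2357 monocyte-gated, 527 and 230 granulocyte-gated and 357 and 452 dendritic-gated cells, the last divided into cDC1, cDC2 and mature DC. Every marker of each of these gates was detected, and the gates cut a continuum: 302 of 3245 macrophage-gated cells lay within 0.2 of the monocyte score and 380 of 3230 monocyte-gated cells within 0.2 of the macrophage score. The median monocyte score of macrophage-gated cells was 0.0725 and 0.0963, and the median macrophage score of monocyte-gated cells was 0.135 and 0.112. Mettl3 was not lower in the library labelled KO, at 10.1 and 10.8 CPM (UMIs per 1000000 UMIs of the gate) in macrophage-gated and 10.3 and 11.3 CPM in monocyte-gated cells, but 3′ UMIs can come from outside a deleted exon, so this does not check the label. Lyz2, the gene that carries Cre, had 6010 CPM in macrophage-gated cells of the library labelled WT and 2763 CPM in those of the library labelled KO.

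The 10 genes lie on 6 chromosomes of the GRCm38 build, with Il1b (ENSMUSG00000027398, chromosome 2, 129364570 to 129371139, minus strand), Il1a (ENSMUSG00000027399, chromosome 2, 129299610 to 129309972, minus strand) and Il1rn (ENSMUSG00000026981, chromosome 2, 24336853 to 24351494, plus strand) on the same one. Casp1 (ENSMUSG00000025888, chromosome 9, 5298517 to 5307265, plus strand) and Casp4 (ENSMUSG00000033538, chromosome 9, 5308828 to 5336783, plus strand) are neighbours, and Il18 (ENSMUSG00000039217, 50554827 to 50581840, plus strand) is further along chromosome 9. The rest are Il1r2 (ENSMUSG00000026073, chromosome 1, 40074079 to 40125231, plus strand), Il18bp (ENSMUSG00000070427, chromosome 7, 102014885 to 102018690, minus strand), Nlrp3 (ENSMUSG00000032691, chromosome 11, 59541568 to 59566956, plus strand) and Gsdmd (ENSMUSG00000022575, chromosome 15, 75862327 to 75867408, plus strand). UMIs are tags of the 3′ end and do not scale with transcript length, but transcripts may be captured with unequal efficiency. Levels are therefore compared between cells and libraries, and not between genes.

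Il1a, Il1rn and Nlrp3 were the 3 members at least 1.5-fold lower in granulocyte-gated cells of the library labelled KO, where 7.57% of 2419 genes were lower and 9.96% higher, and their promoter windows are shown, each from 250 bases before to 50 bases after a RefSeq transcript start (GRCm38.p6). Of the 10 members, 9 had an entry in the promoter table, with 13 windows in all. Capitals mark matches, on either strand, to GAGGAA (a core bound by PU.1, the ETS factor of myeloid cells) or TGANTCA (the AP-1 site). Il1rn and Nlrp3 have several starts, and the window with a match is the one shown, a choice made after the matches were seen.
Il1a, chr2:129309923-129310222, minus strand: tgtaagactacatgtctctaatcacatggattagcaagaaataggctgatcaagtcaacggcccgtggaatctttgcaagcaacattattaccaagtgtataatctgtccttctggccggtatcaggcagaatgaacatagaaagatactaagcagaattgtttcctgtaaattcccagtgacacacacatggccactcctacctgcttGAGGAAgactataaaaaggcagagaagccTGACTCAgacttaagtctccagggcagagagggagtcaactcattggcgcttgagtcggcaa
Il1rn, chr2:24336610-24336909, plus strand: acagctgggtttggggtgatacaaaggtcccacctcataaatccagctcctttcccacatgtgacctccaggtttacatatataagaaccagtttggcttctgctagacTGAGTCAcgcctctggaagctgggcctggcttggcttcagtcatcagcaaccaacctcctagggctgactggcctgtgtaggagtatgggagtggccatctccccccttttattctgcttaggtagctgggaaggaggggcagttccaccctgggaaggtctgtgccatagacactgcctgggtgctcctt
Nlrp3, chr11:59542436-59542735, plus strand: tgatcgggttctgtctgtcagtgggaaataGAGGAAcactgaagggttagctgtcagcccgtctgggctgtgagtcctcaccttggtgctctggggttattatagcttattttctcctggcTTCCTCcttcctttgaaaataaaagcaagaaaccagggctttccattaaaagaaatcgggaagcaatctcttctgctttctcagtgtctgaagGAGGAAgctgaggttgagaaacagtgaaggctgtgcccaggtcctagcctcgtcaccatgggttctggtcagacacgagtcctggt
Counted from the start, GAGGAA stood at -41 and TGANTCA at -12 in the Il1a window, TGANTCA at -141 in the Il1rn window, and GAGGAA at -220, -129 and -36 in the Nlrp3 window. GAGGAA was in 3 of the 13 member windows (Casp1, Il1a and Nlrp3) and in 28.3% of 32851 mouse promoter windows, and TGANTCA was in 2 of 13 (Il1a and Il1rn) and in 7.81% of all. The NF-κB consensus was in 3 of 13 (both Casp4 windows and the Nlrp3 window not shown) and in 8.46% of all. A narrower NF-κB pattern was in 0 of 13 and 1.47%, and a narrow form of the interferon-stimulated response element in 0 of 13 and 3.44%, which says nothing of looser forms. A match describes the sequence and shows no binding.

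Among the cytokines, Il1b was most abundant in granulocyte-gated cells, at 5461 CPM (95% interval 5301 to 5625; 4400 UMIs) in the library labelled WT and 5494 CPM (5221 to 5778; 1515 UMIs) in the library labelled KO. Over the gate the level was thus nearly the same in both libraries, with a log2 ratio of KO to WT of 0.01 (-0.08 to 0.09). Its 2 clusters differed in opposite directions, with 5504 and 6876 CPM in cluster 6 (log2 ratio 0.32, 0.23 to 0.41), led by Retnlg and S100a8, and 5363 and 1586 CPM in cluster 12 (-1.76, -2.06 to -1.47), led by Lcn2 and Cxcl2, and with equal weight per cluster the log2 ratio was -0.36. With every cell thinned to 1000 UMIs, 79.9% and 77.5% of these cells held an Il1b UMI and the median cell held 4 and 3. T cells, which are not a known source of Il1b, held an Il1b UMI in 0.377% and 1.38% of thinned cells, and where those UMIs came from was not tested.

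Monocyte-gated cells came next among the main gates, with Il1b at 474 CPM (454 to 495) and 593 CPM (577 to 608), higher in the library labelled KO by 0.32 on the log2 scale. In all 5 Leiden clusters with enough monocyte-gated cells the Il1b ratio was above 0, from 0.02 to 0.60 on the log2 scale. The gate was made up differently in the 2 libraries, with 30.2% and 20.1% of it in cluster 4, led by Ace and Adgre4, and 23.5% and 28.3% in cluster 5, led by Dmkn, Vcan and Chil3. Cluster 0 held 8.25% and 15.7% of the gate and cluster 9 held 6.87% and 13.1%. Cluster 5 had the higher Il1b, at 855 and 867 CPM, against 338 and 507 CPM in cluster 4.

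In macrophage-gated cells Il1b was lower, at 73.6 CPM (69.7 to 77.7) and 87.8 CPM (83.2 to 92.6). Thinned cells held an Il1b UMI in 7.51% and 6.69%, a share in the opposite order to the CPM, so no direction is read from this gate. The log2 ratio of 0.25 was 0.96 with whole Leiden clusters as classes and -0.14 after thinning. Macrophage-gated cells above the median for C1q, the complement component of mature tissue macrophages, had 38.7 and 64.1 CPM, and those below it had 118 and 122 CPM. In the dendritic subsets Il1b stood at 75.7 and 90.7 CPM in cDC1, 212 and 269 CPM in cDC2 and 294 and 353 CPM in mature DC, and 47 of the 81 Il1b UMIs of cDC1 in the library labelled KO came from 1 cell.

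**Figure D1:**
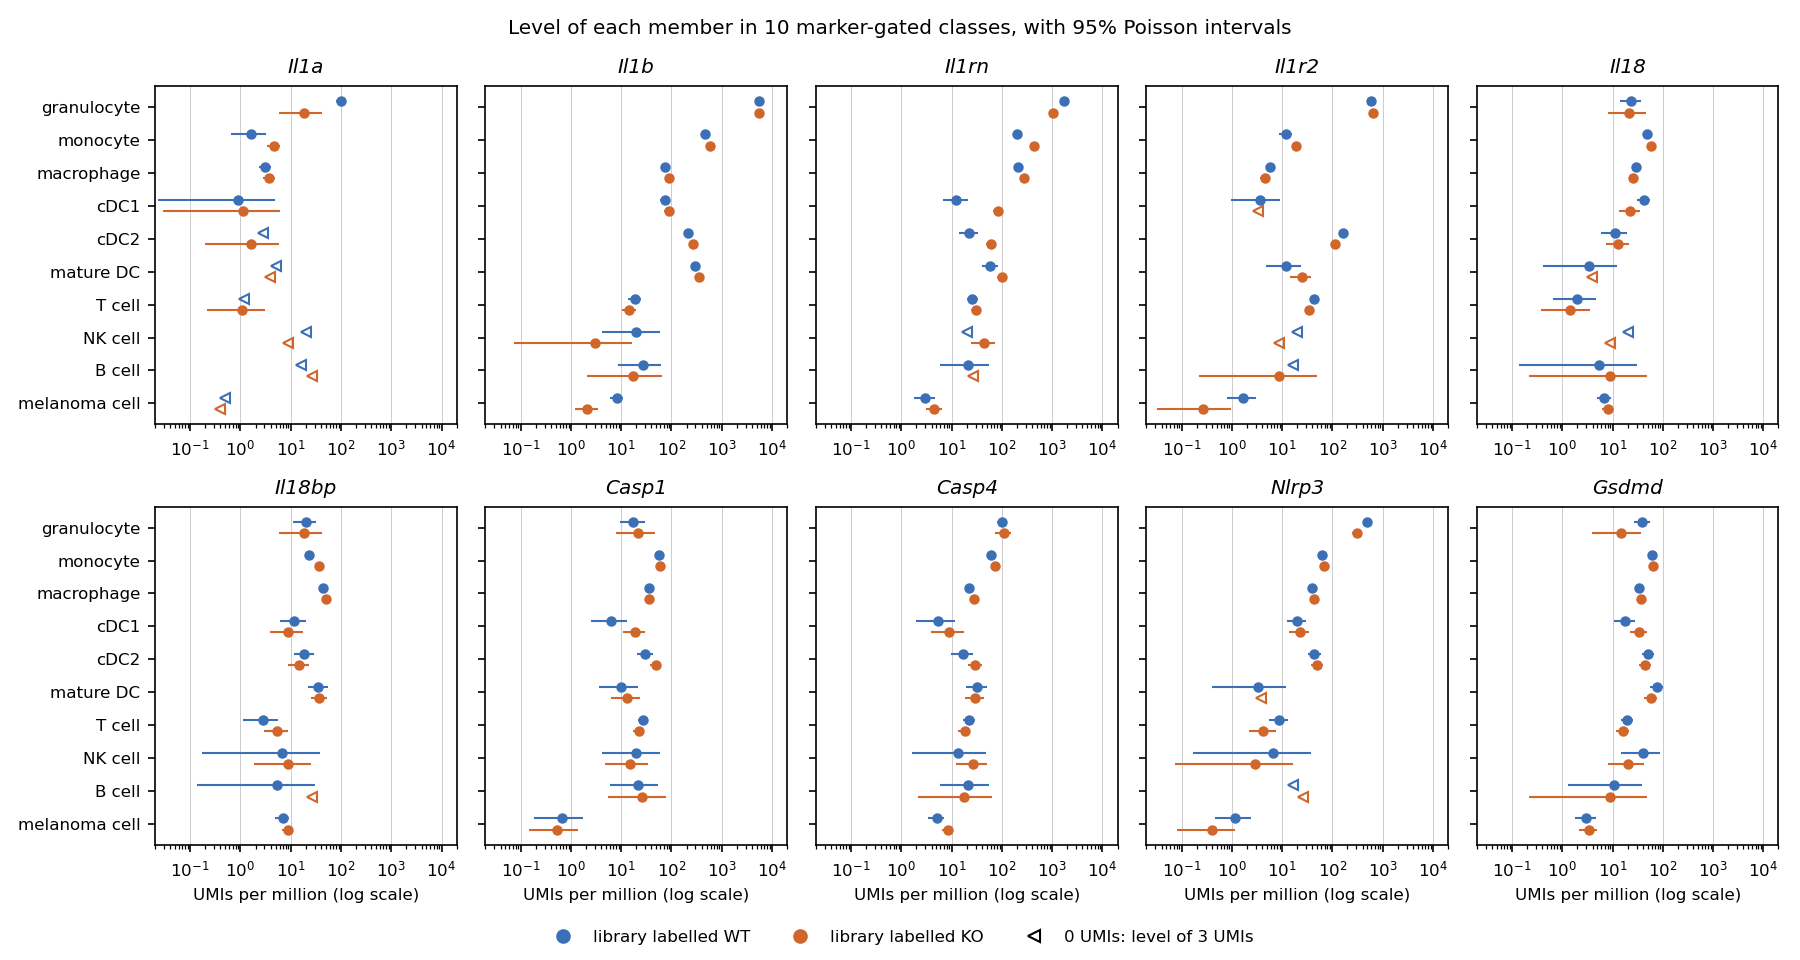
Level of each of the 10 genes in each marker-gated class, as CPM on a log axis, with exact Poisson 95% intervals. Each point is 1 library (labelled WT or KO), and an open triangle marks 0 UMIs, drawn at the level of 3 UMIs. Il1b, at 5461 and 5494 CPM in granulocyte-gated cells, lies far above its own level in T cells, at 18.6 and 14.5 CPM.

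Over the whole library Il1b was similar, at 257 and 247 CPM, while the cells that supplied it were not. Granulocyte-gated cells gave 40.9% of Il1b UMIs in the library labelled WT and 13.0% in the library labelled KO, and monocyte-gated cells gave 19.3% and 49.1%. The granulocyte gate held 9.75% and 3.02% of the filtered cells, and the monocyte gate 16.2% and 30.9%. Whether mice of either genotype differ in these shares was not tested, since each share comes from 1 sort.

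**Figure D2:**
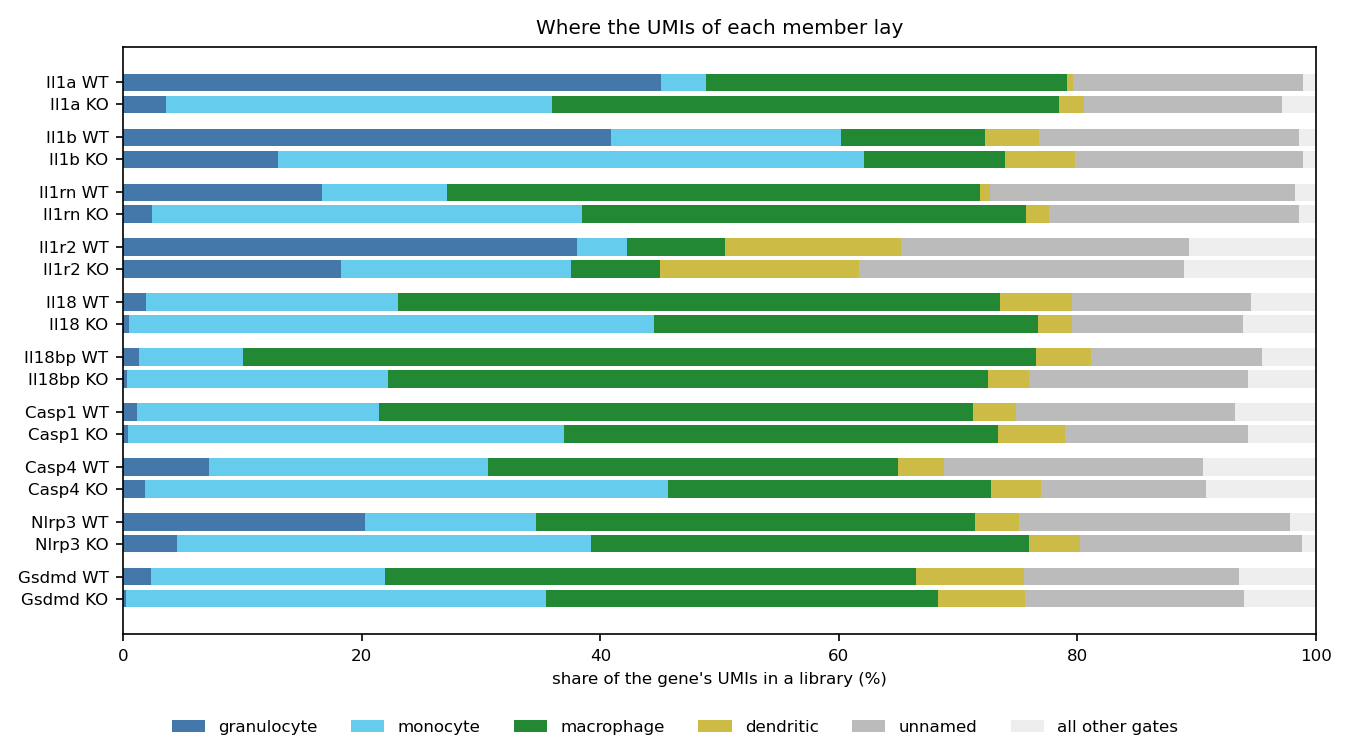
Share of each gene's UMIs (%) that came from each marker-gated class in the libraries labelled WT and KO, over all filtered cells. For Il1b the granulocyte part goes from 40.9% to 13.0% and the monocyte part from 19.3% to 49.1%, and for Il1a the granulocyte part goes from 45.1% to 3.60%.

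Il1a was a low-level granulocyte transcript, at 102 CPM (80.9 to 126; 82 UMIs) in the library labelled WT and 18.1 CPM (5.89 to 42.3; 5 UMIs) in the library labelled KO. The log2 ratio was -2.49 (-4.15 to -1.21), on few molecules: after thinning, 6.30% and 0.833% of granulocyte-gated cells held an Il1a UMI. Of these UMIs, 78 of 82 and 5 of 5 came from cluster 12, where the level was 314 and 74.8 CPM. Granulocyte-gated cells with a UMI of Retnlg, a gene of mature neutrophils, held 44 Il1a UMIs (77.1 CPM) in the library labelled WT and 0 in the library labelled KO, which allows up to 16.3 CPM.

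Outside granulocytes Il1a was sparse, at 3.10 and 3.76 CPM in macrophage-gated cells. Monocyte-gated cells held 7 and 45 Il1a UMIs, of which 23 in the library labelled KO came from 1 cell. NK, B and mature DC gates held 0 Il1a UMIs in both libraries, which allows from 3.85 CPM in mature DC to 26.4 CPM in B cells.

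Il18 was, unlike Il1b, not highest in granulocytes. It stood at 48.9 CPM (42.6 to 56.0) and 57.1 CPM (52.4 to 62.1) in monocyte-gated cells, and at 28.8 CPM (26.4 to 31.4) and 25.7 CPM (23.3 to 28.4) in macrophage-gated cells. The log2 ratios, 0.22 and -0.16, both have intervals that include 0. In cDC1 the level was 41.8 CPM (47 UMIs) and 22.4 CPM (20 UMIs), and in T cells it was 1.98 and 1.42 CPM. Granulocyte-gated cells had 23.6 CPM (14.2 to 36.8, 19 UMIs) and 21.8 CPM (7.98 to 47.4, 6 UMIs), which overlap the macrophage level.

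Among the inhibitors, Il1rn differed between the libraries in opposite directions in different cells. In monocyte-gated cells it stood at 203 CPM (190 to 217; 887 UMIs) in the library labelled WT and 443 CPM (430 to 457; 4284 UMIs) in the library labelled KO. This is a 2.19-fold higher level (2.03 to 2.35), with a log2 ratio of 1.13, and after thinning 12.2% and 25% of the cells held an Il1rn UMI, against 1.51% and 1.55% of T cells. Granulocyte markers (S100a8, S100a9 and Retnlg) were at 219 and 49.8 CPM in the monocyte gate. In T cells these markers were at 94.5 and 28.7 CPM and Il1rn at 25.7 and 30.1 CPM. The part of free RNA in the Il1rn difference was not tested.

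The monocyte difference in Il1rn was seen in more than 1 state of these cells, and the mixture of states also differed between the libraries. In each of the 5 clusters with enough monocyte-gated cells Il1rn was higher in the library labelled KO, with log2 ratios from 0.67 to 1.03. Cluster 5 had 154 and 316 CPM, cluster 9, led by interferon-induced Ifit genes and Rsad2, had 526 and 882 CPM, and cluster 0, led by Inhba, Mmp12 and Nos2, had 560 and 903 CPM. The difference was alike in Ly6c2-high (199 and 437 CPM) and Ly6c2-low monocytes (206 and 450 CPM), divided at the median of Ly6c2, a marker of classical monocytes. Cluster 0 held 8.25% and 15.7% of the gate, cluster 9 held 6.87% and 13.1%, and cluster 4, where Il1rn was low, held 30.2% and 20.1%. The log2 ratio over the gate, 1.13, lay above that of each of the 5 clusters. Giving each cluster equal weight lowered it to 0.76. The part of this mixture in the difference was not tested apart from these values.

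In macrophage-gated cells Il1rn was at 213 CPM (207 to 220) and 281 CPM (273 to 290), which is under 1.5-fold at a log2 ratio of 0.40, though 0.61 and past it with whole Leiden clusters as classes. Cells above the median for C1q had less Il1rn, at 130 and 206 CPM, than those below it, at 318 and 389 CPM. Macrophage-gated cells of cluster 0 had the highest level, at 709 and 755 CPM, with little difference between the libraries. The ratio was above 0 in 6 of 7 clusters, from -0.06 to 0.65.

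Dendritic-gated cells had little Il1rn, at 26.1 CPM (20.5 to 32.9; 73 UMIs) and 79.2 CPM (69.3 to 90.2; 229 UMIs), which gives a log2 ratio of 1.60 (1.21 to 2). The level was higher in the library labelled KO in all 3 subsets, at 12.5 and 85.1 CPM in cDC1, 22.3 and 60.8 CPM in cDC2 and 58.9 and 101 CPM in mature DC. Of the 76 cDC1 UMIs in the library labelled KO, 22 came from 1 cell. This call did not hold with whole Leiden clusters as classes (log2 ratio 0.47) or when every cell took its highest-scoring class (0.32). T cells had Il1rn at 25.7 CPM (19.8 to 32.7) and 30.1 CPM (24.0 to 37.2), so the dendritic value of the library labelled WT lay at the T cell level.

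In granulocyte-gated cells the direction was the reverse, with Il1rn at 1751 CPM (1661 to 1845; 1411 UMIs) and 1030 CPM (914 to 1157; 284 UMIs), which gives a log2 ratio of -0.77 (-0.95 to -0.58). About the same share of cells held a UMI after thinning, 44.8% and 41.7%, while cells with 6 to 11 Il1rn UMIs made up 10.4% and 5% and those with 12 or more 2.91% and 0, where 0 of 120 cells allows up to 2.5%. The lower level was found in cluster 12, at 4710 and 2483 CPM, and in cluster 6 the level was 434 and 557 CPM. Cluster 12 made up 33.4% of the granulocyte gate in the library labelled WT and 23.9% in the library labelled KO, and the part of this mixture in the difference was not tested apart from these values. The call did not hold with whole Leiden clusters as classes (log2 ratio -0.46) or with each cell in its highest-scoring class (-0.41).

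**Figure D3:**
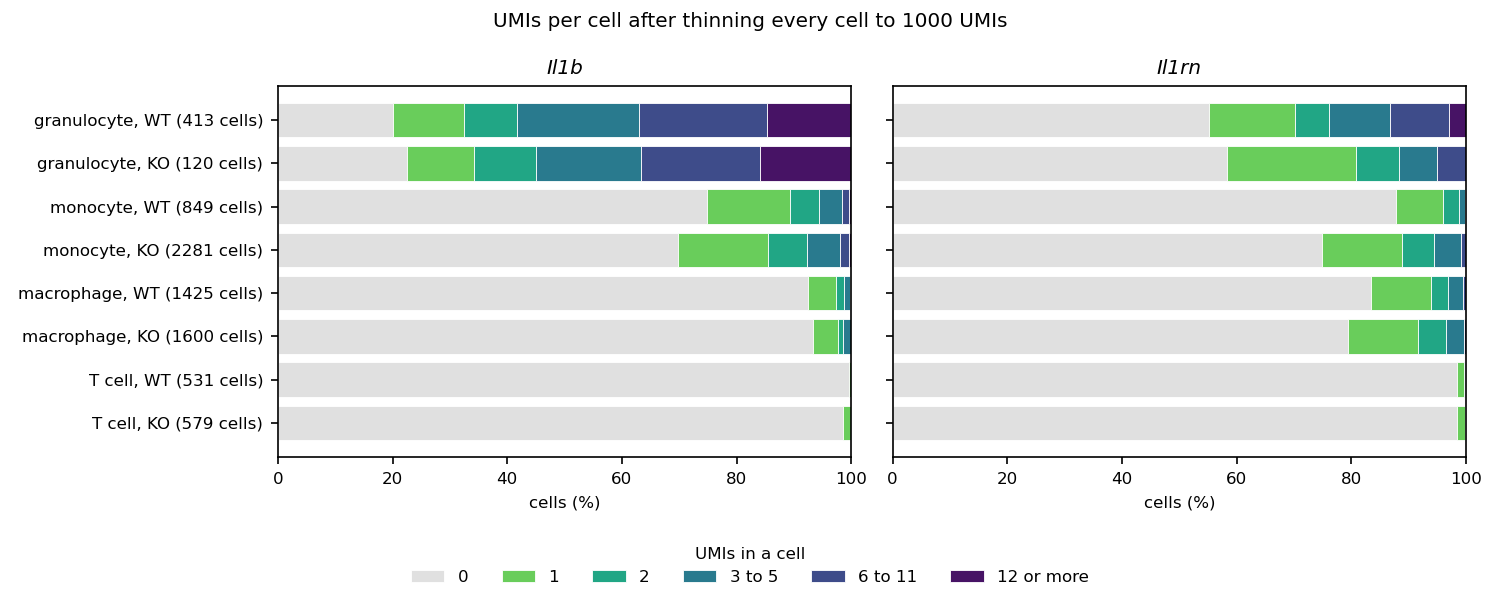
Share of cells (%) by number of Il1b or Il1rn UMIs after thinning each cell to 1000 UMIs, for granulocyte-gated, monocyte-gated and macrophage-gated cells of the libraries labelled WT and KO. Over the granulocyte gate the median was 4 and 3 Il1b UMIs, and 87.8% and 75% of monocyte-gated cells had 0 Il1rn UMIs.

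Set against the agonist, Il1rn UMIs per 100 Il1b UMIs were 32.1 (30.2 to 34.1) and 18.7 (16.5 to 21.3) in granulocyte-gated cells, and 42.8 (39.5 to 46.3) and 74.8 (71.9 to 77.8) in monocyte-gated cells. Within the granulocyte clusters the ratio was not lower in the library labelled KO, at 87.8 and 157 in cluster 12 and 7.89 and 8.10 in cluster 6. Cluster shares and levels within clusters both differed between the libraries, and their parts in the value over the gate were not tested. In monocyte-gated cells it was higher in that library within each of 5 clusters (of which 1, 5 and 9 were named monocyte, 0 macrophage and 4 unnamed), from 7.78 and 10.5 in cluster 4 to 174 and 192 in cluster 9, though with overlapping intervals in clusters 1, 4 and 9. It was 290 and 320 in macrophage-gated cells and 15.0 and 33.5 in dendritic-gated cells. The 2 transcripts may be captured with unequal efficiency, so only its change between cells and libraries can be read.

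Il1r2, the decoy receptor, was highest in granulocyte-gated cells, at 590 CPM (538 to 645) and 635 CPM (544 to 736), with a log2 ratio of 0.11 (-0.15 to 0.36). Among dendritic cells it marked cDC2, at 161 CPM (138 to 187) and 115 CPM (96.7 to 136), with 7 and 19 UMIs in mature DC and 4 and 0 in cDC1, where 0 allows up to 3.36 CPM. Macrophage-gated cells had 5.80 and 4.59 CPM, and monocyte-gated cells 11.9 and 19.0 CPM. Over the whole library Il1r2 was at 29.8 and 20.2 CPM, and at 27.6 CPM in the library labelled KO if its gates were given the shares of the library labelled WT.

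The T cell gate also held Il1r2, at 43.9 CPM (36.1 to 52.8; 111 UMIs) and 34.7 CPM (28.2 to 42.3; 98 UMIs). After thinning, 2.82% and 2.42% of T cells held a UMI, whereas NK cells held 0 UMIs in both libraries, which allows up to 20.2 and 8.85 CPM. T cells with a UMI of Foxp3, the factor of regulatory T cells, had 67.0 and 79.6 CPM, and the other T cells had 42.1 and 31.2 CPM. Without thinning, an Il1r2 UMI was in 34.5% of 29 and 36.8% of 19 Foxp3-positive cells (median depths 3251 and 7986 UMIs) and in 8.69% and 6.23% of the other, shallower T cells (2289 and 1765 UMIs). T cells of cluster 11, led by cytotoxic genes with Pdcd1, had 49.3 and 36.0 CPM, and those of cluster 3, led by Tcf7 and Lef1 of naive-like cells, had 17.8 and 26.1 CPM.

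Il18bp, the inhibitor of IL-18, was at 43.8 CPM (40.8 to 47.0) and 51.0 CPM (47.5 to 54.6) in macrophage-gated cells. In monocyte-gated cells it was at 23.1 CPM (18.8 to 28.1; 101 UMIs) and 36.1 CPM (32.4 to 40.1; 349 UMIs), and the log2 ratio was 0.64 (0.32 to 0.98), whose interval includes ratios under 1.5-fold. It was above 0 in 3 of the 4 clusters with enough UMIs in monocyte-gated cells, from -0.43 to 0.91, and the call did not hold with equal weight per cluster (0.21), with whole Leiden clusters as classes (0.47) or after thinning (0.36). Mature DC had 35.3 and 37.2 CPM, and T cells 2.77 and 5.31 CPM.

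Of the inflammasome genes, Nlrp3 was highest in granulocyte-gated cells, at 485 CPM (438 to 536; 391 UMIs) in the library labelled WT and 305 CPM (243 to 377; 84 UMIs) in the library labelled KO. The log2 ratio of -0.67 (-1.03 to -0.33) just passed 1.5-fold, its interval includes ratios that do not, and it was -0.37 with equal weight per cell, -1.42 with the stricter filter on cells and -1.30 after thinning. As for Il1rn, the lower level was found in cluster 12, at 919 and 329 CPM, while cluster 6 had 292 and 303 CPM. Monocyte-gated cells had 63.1 and 66.9 CPM, macrophage-gated cells 40.0 and 43.6 CPM and cDC2 43.8 and 50.1 CPM, with intervals of the 2 libraries that overlap in each.

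Nlrp3 UMIs were found in a larger share of the cells that also held an Il1b UMI. Among thinned monocyte-gated cells with an Il1b UMI, 7.98% and 9.86% held an Nlrp3 UMI, against 4.56% and 4.84% of those without, and among macrophage-gated cells the shares were 10.3% and 11.2% against 4.02% and 4.62%. In granulocyte-gated cells they were 33.6% and 21.5% against 22.9% and 14.8%, the latter of only 83 and 27 cells. The intervals of these shares overlap in monocyte-gated cells of the library labelled WT and in granulocyte-gated cells of both libraries. Il1rn was found in 14.1% and 28.1% of monocyte-gated cells with an Il1b UMI and in 11.6% and 23.7% of those without. In macrophage-gated cells it was found in 20.6% and 29.9% against 16.2% and 19.8%, and in both gates the intervals overlap in both libraries. In contrast, Il1rn was found in 42.1% and 33.3% of granulocyte-gated cells with an Il1b UMI and in 55.4% and 70.4% of those without. These intervals overlap in the library labelled WT, and all shares are a description over cells of 1 library each.

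Of the caspases, Casp1 was at 57.9 CPM in monocyte-gated cells of both libraries and at 35.0 and 35.6 CPM in macrophage-gated cells, while granulocyte-gated cells held 14 and 6 Casp1 UMIs. T cells had 27.7 and 22.6 CPM. In dendritic-gated cells Casp1 was at 16.1 CPM (11.8 to 21.6; 45 UMIs) and 29.8 CPM (23.8 to 36.7; 86 UMIs), and the log2 ratio was 0.88 (0.35 to 1.44), with the larger part of the UMIs in cDC2 (29.8 and 48.5 CPM). That call was lost when whole clusters in place of single cells were assigned to classes (log2 ratio 0.23) and when every cell took its highest-scoring class (0.47), and the ratio was 2.28 after thinning.

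Casp4, unlike Casp1, was highest in granulocyte-gated cells, at 101 CPM (79.8 to 125) and 109 CPM (73.4 to 155). It was at 59.7 and 73.0 CPM in monocyte-gated and 21.7 and 27.8 CPM in macrophage-gated cells, log2 ratios of 0.29 and 0.36. Gsdmd was at 59.9 and 64.5 CPM in monocyte-gated, 33.5 and 37.1 CPM in macrophage-gated and 75.7 and 57.7 CPM in mature DC. Granulocyte-gated cells held 31 and 4 Gsdmd UMIs (38.5 and 14.5 CPM), too few for a ratio to be read.

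Members were counted against a ratio of 1.5-fold among genes with a mean of at least 20 CPM and at least 50 UMIs in the gate, as a description with no test. In macrophage-gated cells 8 members passed the filter and 0 were past 1.5-fold (2 with whole Leiden clusters as classes, Il1b and Il1rn), where 0.817% of 5505 genes were higher and 0.272% lower in the library labelled KO, and the members' median log2 ratio was 0.18 against 0.016 over all genes. In monocyte-gated cells 8 passed and 2 were higher, Il1rn and Il18bp, where 2.3% of 5381 genes were higher and 0.613% lower, with medians of 0.26 and 0.0058. Both medians lay between the 5th and 95th percentiles of all genes, -0.22 to 0.31 in macrophages and -0.34 to 0.455 in monocytes, with most ratios under 1.5-fold. With equal weight per cell, macrophage ratios were -0.07 for Il1b, -0.11 for Nlrp3, -0.09 for Casp1 and -0.11 for Il18. Those of Il1rn, Il18bp, Casp4 and Gsdmd stayed above 0. No shared direction is read from these medians.

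In granulocyte-gated cells 6 members passed, 0 were higher and 3 were lower (Il1a, Il1rn and Nlrp3), where 9.96% of 2419 genes were higher and 7.57% lower, with medians of -0.33 and 0.10. Il1a passed the filter only through the library labelled WT, so it could only be lower, and it adds nothing to this count. Of the 4 gates this one had the shallowest cells (medians of 1320 and 1028.5 UMIs) and the largest shares of genes past 1.5-fold. In dendritic-gated cells 6 members passed, 2 were higher (Il1rn and Casp1) and 0 lower, where 2.47% of 5263 genes were higher and 0.95% lower, with medians of 0.29 and 0.035. Casp1 was below 20 CPM and 50 UMIs in the library labelled WT and passed only through the library labelled KO, so its call likewise adds nothing.

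**Figure D4:**
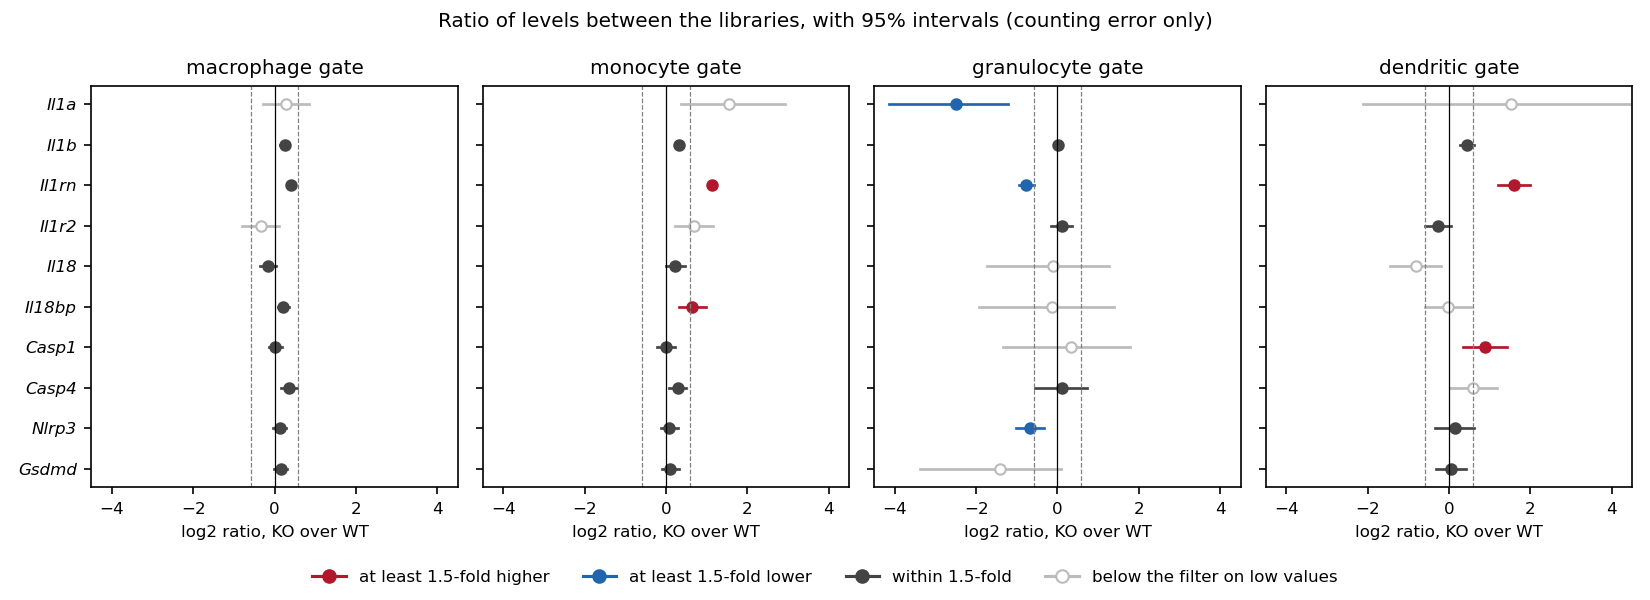
Log2 ratio of the library labelled KO to the library labelled WT for each of the 10 genes in macrophage-gated, monocyte-gated, granulocyte-gated and dendritic-gated cells, with exact 95% intervals of the UMI split and dotted lines at 1.5-fold. Il1rn lies at 1.13 in monocyte-gated and 1.60 in dendritic-gated cells and at -0.77 in granulocyte-gated cells.

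A further 51 genes of these pathways, listed with earlier results of these data known, were counted in the same way. In macrophage-gated cells 19 passed the filter and 0 were past 1.5-fold, among them Pycard, the adaptor that joins sensors to caspase-1, at 424 and 425 CPM. In monocyte-gated cells 23 passed and 3 were higher in the library labelled KO, where 2.3% of all genes were, all from the list of effector genes. They were Ninj1, which ruptures the membrane of dying cells, at 168 and 254 CPM, and the guanylate-binding proteins Gbp2 (317 and 557 CPM) and Gbp5 (68.1 and 116 CPM), which act on bacteria and their lipopolysaccharide upstream of inflammasomes. Gbp2 (117 and 189 CPM) and Gbp5 (52.7 and 103 CPM) were the 2 of 18 that were higher in dendritic-gated cells, where 2.47% of all genes were.

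In granulocyte-gated cells 17 of the 51 passed, with 1 higher and 3 lower in the library labelled KO, where 9.96% and 7.57% of all genes were. The sensor of cytosolic DNA, Aim2, was higher on few molecules (35 and 19 UMIs, at 43.4 and 68.9 CPM). Aim2 passed the filter on UMIs only through the library labelled KO, so it could only be higher, and its call adds nothing. Irak3, which restrains IL-1 and Toll-like receptor signalling, was lower (129 and 43.5 CPM). It passed the filter on UMIs only through the library labelled WT, so it could only be lower, and its call likewise adds nothing. Tnfaip3, which encodes the NF-κB inhibitor A20 (343 and 210 CPM), and the sensor Mefv, or pyrin (137 and 83.4 CPM), were also lower. Of the 7 receptor genes of the list, 2 passed the filter in granulocytes, Il1rap at 305 and 276 CPM and Il18rap at 211 and 203 CPM, while Il1r1, the signalling receptor of IL-1, had 0 UMIs in granulocyte-gated cells of both libraries, which allows up to 3.72 and 10.9 CPM.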

How the data were processed

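Single-cell 3′ RNA-seq of sorted tumour CD45+ cells gave 1 library per genotype. Counts are UMI counts per gene and cell as deposited by the authors, made with Cell Ranger 4.0.0 on mm10 per the matrix headers, with totals of 45963969 and 54052317 UMIs. The study's own analysis used Seurat, which was not used here. Barcodes with at least 200 genes and at most 10% mitochondrial UMIs were kept (5661 and 8157), and because Scrublet's automatic threshold marked 1 cell per library, its top-ranked cells were removed at 0.8% per 1000 cells (256 and 532). Each cell was gated by marker scores (its highest class at 0.2 or more, ahead of the next by 0.1, with limits of 0.3 and 0.4 on other lineages), thresholds set after seeing the data. This named 78.6% and 80.1% of cells. Leiden clustering (resolution 1) gave 24 clusters, of which 4 stayed unnamed.

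Raw UMIs of the 10 members were summed per library and gate and given as CPM with exact Poisson intervals, shares with exact Clopper-Pearson intervals, and log2 ratios with exact binomial intervals. Ratios were read at 1.5-fold among genes with a mean of 20 CPM and 50 UMIs, leaving ribosomal, mitochondrial and haemoglobin genes out of the background. Shares of cells used cells thinned to 1000 UMIs, leaving out shallower cells (413 of 527 and 120 of 230 granulocyte-gated cells remained). A count of 0 allows 3 UMIs. All members were named, and other pathway genes where they passed 1.5-fold, with Pycard, Il1rap, Il18rap and Il1r1 added after their values were seen. The members and gene lists were chosen with earlier results of these data known. Gates of T, NK, B and melanoma cells served as a comparison for free RNA. The ratio code was tested on simulated data. Tools were python 3.11.15, scanpy 1.11.5, leidenalg 0.10.2, scipy 1.17.1, numpy 2.4.6, pandas 2.3.3 and matplotlib 3.10.9.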

Additional observations from a re-analysis of the deposited data

Results flagged for a closer look

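Il1rn, the antagonist, went in opposite directions in different gates under the same comparison of libraries. Its log2 ratio of the library labelled KO to the library labelled WT was -0.77 in granulocyte-gated cells, while it was 0.40 in macrophage-gated cells, 1.13 in monocyte-gated cells and 1.60 in dendritic-gated cells. With 1 library per genotype the difference between gates was not tested. The granulocyte value was lower in cluster 12 (-0.92) and not in cluster 6 (0.36), and it was under 1.5-fold when classes were assigned in 2 other ways.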

How the results depend on the processing

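No log2 ratio of a member that passed the filter and 1.5-fold changed direction in any alternative run, and of 356 member ratios recomputed, 304 moved by less than their counting interval and 52 by more. Members past 1.5-fold numbered 0 in macrophage-gated, 2 in monocyte-gated, 3 in granulocyte-gated and 2 in dendritic-gated cells. With whole Leiden clusters as classes the macrophage, monocyte and dendritic counts were 2, 1 and 0, and with each cell in its highest-scoring class the dendritic count was 0. The granulocyte count was 2 with whole clusters, the stricter filter on cells, equal weight per cell and thinning. With the stricter filter on cells Il1a, Il1rn and Nlrp3 were at -3.44, -0.75 and -1.42, and with thinning at -3.74, -0.91 and -1.30. In these 2 runs all 3 ratios stayed past 1.5-fold, so the count fell through the filter on low values. A lower limit of 0.32 on the log2 ratio gave 2 in macrophages, and a ratio of 2 gave 1 each in monocytes, granulocytes and dendritic cells. A filter at 50 CPM gave 1 in monocytes and 1 in dendritic cells, and no filter gave 4 and 5. Thinning to 1000 UMIs left 1 in dendritic cells. The ratios of Il1rn (2.23) and Casp1 (2.28) both stayed past 1.5-fold there, so the count fell through the filter on low values. Equal weight per Leiden cluster, chosen after seeing the data, left 1 in monocytes. The log2 ratio of Il1rn ranged from 0.76 to 1.33 in monocytes and from -0.91 to -0.41 in granulocytes, where it was under 1.5-fold with whole clusters (-0.46) and with highest-scoring classes (-0.41), that of Il1a in granulocytes from -3.74 to -1.81 and that of Nlrp3 there from -1.42 to -0.37. Il18bp in monocytes ranged from 0.21 to 0.67 and was under 1.5-fold with whole clusters (0.47) and after thinning (0.36), where Il18 (0.66) took its place in the count of 2, and in dendritic cells Il1rn ranged from 0.32 to 2.23 and Casp1 from 0.23 to 2.28. Il1b in macrophages, at 0.25, was -0.14 after thinning and 0.96 with whole clusters. No paired analysis was possible because each genotype has 1 library. Depth limits the granulocyte gate most, where Il1a rests on 5 UMIs in the library labelled KO.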

Other observations

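The gate on nonclassical monocyte markers, with only 40 and 107 cells, held 23 and 6 Il1rn UMIs (271 and 26.9 CPM, labelled WT and KO in that order) and had Il1b at 388 and 260 CPM. In the library labelled WT, 9 of the 23 Il1rn UMIs and 14 of the 33 Il1b UMIs each came from 1 cell. Granulocyte markers in this gate were at 424 and 35.8 CPM. In cluster 4, led by Ace and Adgre4, which held 264 and 473 monocyte-gated cells, the order was the other way, with Il1rn at 26.3 and 53.3 CPM.

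Over 20 points (10 gates in 2 libraries), the genes whose log levels most closely followed 7 of the members (Casp1, Casp4 and Gsdmd were not run) were found by Pearson's r, a description with no p since the gates share libraries and depth. Il1b was followed by Lilra6 (r = 0.956), Mcemp1 (0.954) and Gcnt2 (0.946), Il1rn by Pla2g7 (0.946), Tarm1 (0.943) and Nos2 (0.935), Nlrp3 by Cd300lf (0.970), A530064D06Rik (0.969) and Ccr1 (0.966), and Il1a by Slc32a1 (0.988), Cxcr1 (0.979) and Gm5416 (0.977). Il1r2 was followed by Klra17 (0.905), Il18 by Aldh3b1 (0.913) and Il18bp by Rtn4 (0.922). The 3 genes that followed Il1a were at 1.55 CPM or less in macrophage-gated and monocyte-gated cells. Slc32a1 was at only 24.8 and 7.25 CPM in granulocyte-gated cells, so these r values rest mostly on the 2 granulocyte points.

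Il1b UMIs per 100 S100a8 and S100a9 UMIs were 3.45 and 3.85 in granulocyte-gated cells and 20.3 and 51.9 in T cells, and Il1rn UMIs per 100 were 1.11 and 0.722 in granulocytes and 28.1 and 108 in T cells. In melanoma-gated cells the Il1b values were 7.94 and 19.8 and the Il1rn values 2.92 and 42.0. NK and B cells held from 0 to 15 UMIs of either gene, and where these UMIs came from was not tested.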
